A study of Caenorhabditis elegans with 6 samples.

Results

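The 71 genes described here encode precursors of neuropeptide-like proteins in Caenorhabditis elegans, out of 46911 genes counted in whole animals at the fourth larval stage (L4). They are the genes named nlp followed by a number, without the epidermal antimicrobial peptide genes nlp-24 to nlp-34, together with pdf-1, pdf-2, ntc-1 and snet-1. Of these, 64 carry the symbol in the Ensembl annotation of WBcel235, and 7 were recognised by their locus tag in RefSeq, which names them nlp-10 (spelt npl-10 in Ensembl), nlp-88, nlp-89, nlp-90, nlp-91, nlp-99 and nlp-119. Neuropeptides are cut from longer precursors that travel through the secretory pathway into dense core vesicles. A proprotein convertase and a carboxypeptidase cut and trim the precursor, and many peptides are then amidated at their end. The released peptides act mostly on G protein-coupled receptors, often on cells that the releasing neuron does not contact. In nematodes the nlp genes are a mixed group, defined by not belonging to the FMRFamide-like or insulin-like families.

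The study set 3 RNA libraries of strain VC295, which carries unc-30(ok613) on chromosome IV, against 3 of the wild-type strain N2. No other allele or agent is given for either group, and both were raised in the same way on E. coli OP50 at 20 °C. The gene unc-30 encodes a homeodomain transcription factor of the GABAergic D-type motor neurons. Each library came from many whole animals pooled from a synchronised plate, and the mutant group is a single strain, so strain and mutation cannot be told apart. The genotype label names the mutation for all 6 samples, so groups follow the titles, which match the strain labels.

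For unc-30 itself the 3 mutant libraries held 20, 24 and 17 counts, and those of wild type 23, 26 and 17. The labels do not say which bases ok613 removes, so these whole-gene counts do not check them. Total counts per library ran from 17318736 to 26377332. Levels are given as counts per 1000000 (CPM) scaled by the trimmed mean of M-values (TMM), and 3 counts correspond to 0.0765 to 0.227 CPM on this scale. Once scaled in this way, the similar raw counts of unc-30 gave a mutant mean of 1.33 CPM and a wild-type mean of 0.729 CPM. The log2 fold change of unc-30, mutant minus wild type, was estimated at 0.88 ± 0.42 (SE), with an adjusted p of 0.128 in the edgeR test. Mutant replicate 1 and wild type replicate 2 stood apart from their groups on the first principal component, at -26.3 against -74.3 and -75.0, and at 26.6 against 75.2 and 73.7. Whether replicates were grown as separate cultures is not stated, so the p-values cover the spread between these 6 libraries, which may be technical.

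Most of the neuropeptide-like protein genes were higher in the mutant. Of the 64 genes that passed the filter on low counts, 56 rose, 0 fell and 8 did not pass (edgeR quasi-likelihood test, adjusted p under 0.05 over all 14506 genes tested). Across all genes tested 38% passed in either direction, 17.1% as higher in the mutant and 20.9% as lower. The rises had fitted log2 fold changes from 0.92 to 2.88, and 54 of the 56 exceeded 1. The median over the 64 genes was 2.01, against -0.10 over all genes tested. At an unadjusted p under 0.05 the edgeR test also found 0 of the 64 lower, as did DESeq2 and limma-voom after adjustment.

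For 57 of the 64 genes every mutant library lay above every wild-type library, a pattern seen in 24.4% of all genes tested. The opposite pattern was seen in 1 gene, nlp-4, and in 28.2% of all genes. Among the 56 genes that rose, the lowest mutant value was in replicate 1 for 43, and the highest wild-type value was in replicate 3 for 41. Leaving out mutant replicate 1 and wild type replicate 2 together, a choice made after seeing the data, left 56 rises. Of the 56 genes, 48 were called higher whichever single library was left out.

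The direction is relative to the TMM reference. Scaling by total counts alone moved the median of all genes from -0.10 to -1.11 and that of the peptide genes from 2.01 to 0.98, with 33 rises and 2 falls (nlp-4 and nlp-16) among the 64. Across all genes that scaling called 3.43% higher and 56.4% lower. The peptide genes' median exceeded that of all genes by 2.10 under TMM and by 2.08 with total counts. These genes are short, with a median of 596 exonic bases against 1366 for all genes tested, and fold changes moved with length. All 4500 tested genes of 1000 exonic bases or fewer had a median log2 fold change of 0.25, and 26.1% of them were higher. With length trends removed, 55 of the peptide genes were higher, 1 lower (nlp-4) and their median was 1.79, which exceeded that of all genes by 1.71.

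**Figure D1:**
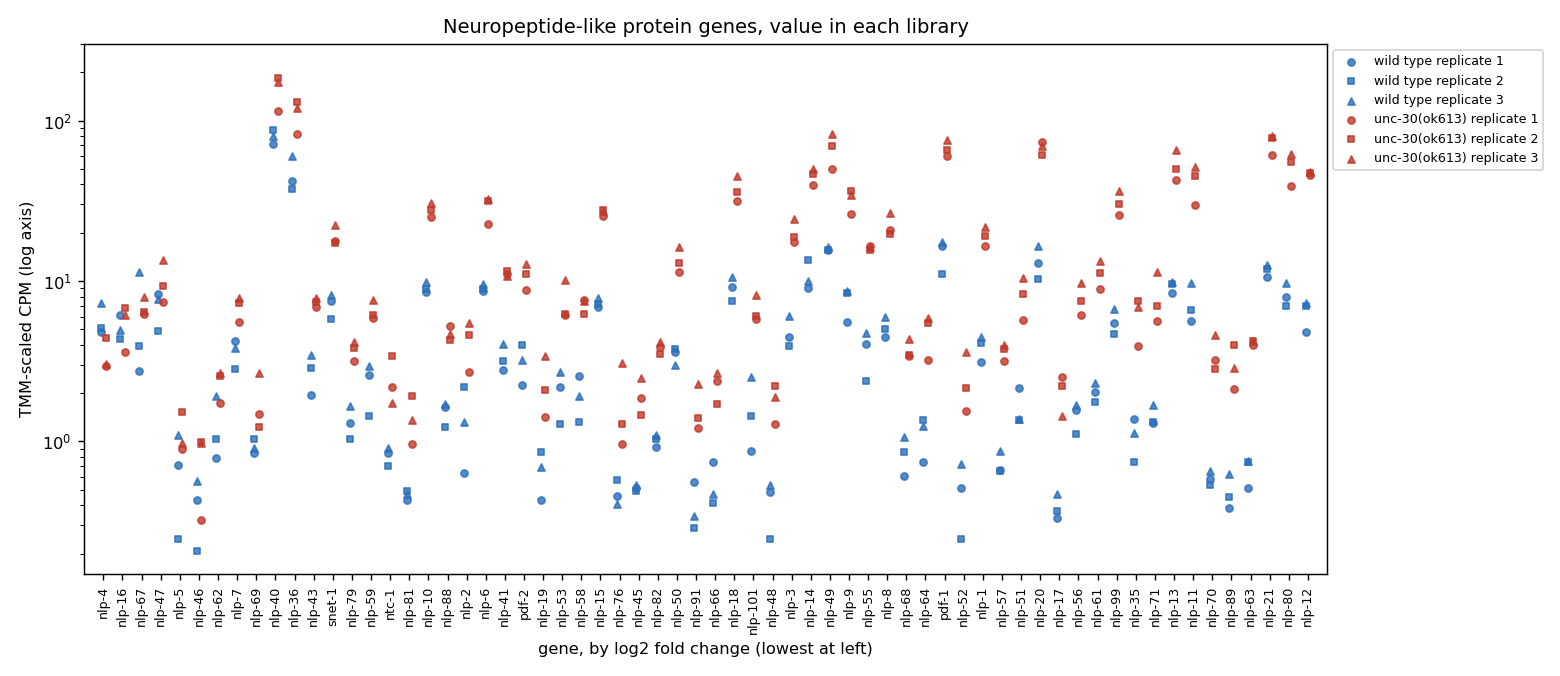
TMM-scaled CPM (log axis) of the 64 tested neuropeptide-like protein genes in each of the 6 libraries, ordered by log2 fold change. Blue marks are wild type, red marks are the unc-30(ok613) mutant, and marker shapes give the replicate. Red marks lie above all blue marks for 57 genes and below them for nlp-4.

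**Figure D2:**
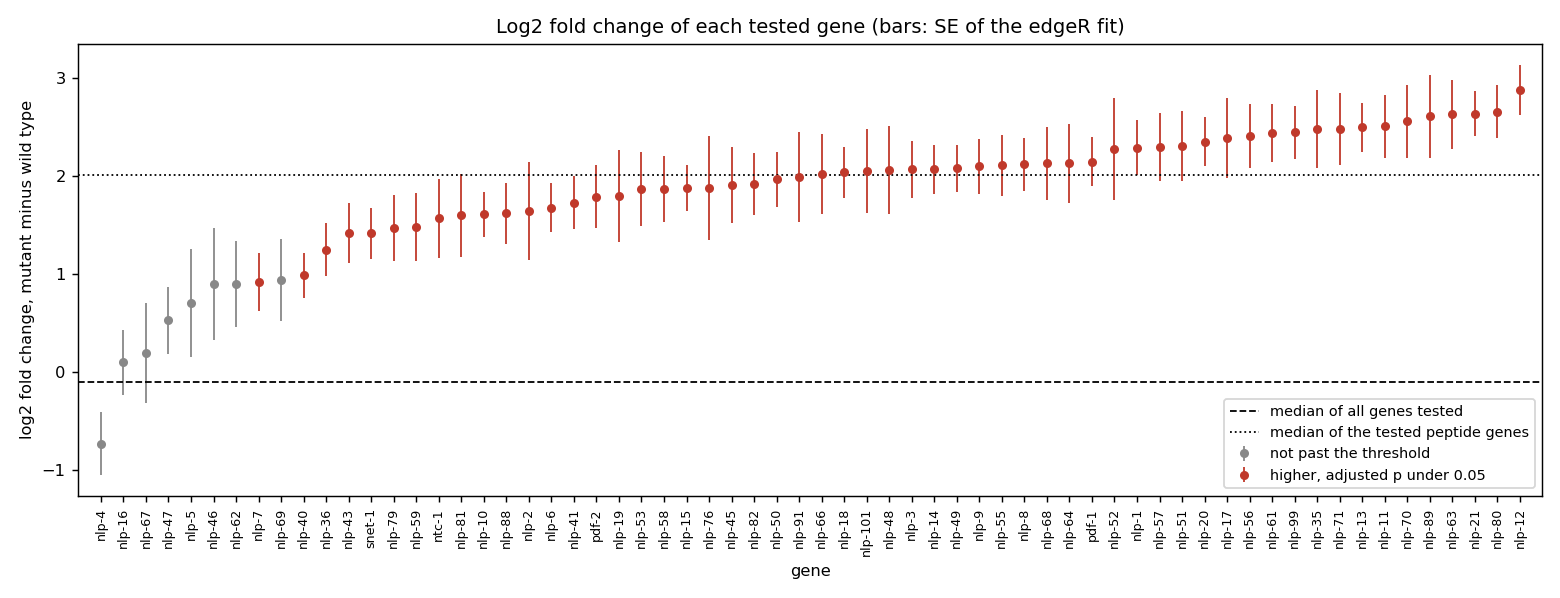
Log2 fold change (mutant minus wild type, TMM scale) of the 64 tested genes with the standard error of the edgeR fit, in red where the adjusted p was under 0.05. The dotted line is their median of 2.01 and the dashed line the median of all 14506 genes tested, -0.10. With scaling by total counts the values of 9 genes at the left of the plot that lie above 0 turn below 0.

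Precursors related to well-known hormone families rose in 4 of 5 cases. The pigment dispersing factor genes pdf-1 and pdf-2 encode ligands of the receptor PDFR-1, which act on locomotion and roaming. pdf-1 (WBGene00020317, chromosome III, 6909590 to 6912481, minus strand, WBcel235) had 59.8, 65.8 and 75.2 CPM in the mutant (replicates 1 to 3 in order, as throughout), compared with 16.4, 11.1 and 17.6 CPM in wild type. The groups did not overlap, and the mean rose 4.44-fold from 15 ± 3.43 to 66.9 ± 7.75 CPM (SD, n = 3 each; edgeR adjusted p = 0.00217). pdf-2 (X, 2163384 to 2164069, plus strand) had 8.81, 11 and 12.8 CPM in the mutant, compared with 2.24, 3.99 and 3.23 CPM in wild type. It rose 3.45-fold (edgeR adjusted p = 0.00495), again with no overlap, but with scaling by total counts it no longer passed.

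nlp-12, whose cholecystokinin-like peptides are released by the stretch-sensitive neuron DVA and act on the receptor CKR-2, had the highest log2 fold change of the 64 genes. It lies on chromosome I (1843384 to 1843959, plus strand) and had 45.9, 47.2 and 47.9 CPM in the mutant against 4.84, 7.03 and 7.30 CPM in wild type. The mutant libraries lay within 2 CPM of each other while the wild-type values were all below 8. The log2 fold change was 2.88 ± 0.26 (SE), a 7.36-fold rise (edgeR adjusted p = 0.00162).

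ntc-1 encodes nematocin, the nematode relative of vasopressin and oxytocin. Its levels were low, at 2.19, 3.39 and 1.74 CPM in the mutant, compared with 0.841, 0.699 and 0.909 CPM in wild type. It rose 2.98-fold (edgeR adjusted p = 0.0161), but it did not pass once mutant replicate 2 was dropped (adjusted p = 0.0702), nor with total counts. Its exons overlap those of tsp-14 on the opposite strand, which itself rose (log2 fold change 1.40). Without a stated strand setting, reads from the stretch that the pair shares cannot be told apart. nlp-47, related to gonadotropin-releasing and adipokinetic hormones, had 7.40, 9.30 and 13.6 CPM in the mutant, compared with 8.26, 4.89 and 7.77 CPM in wild type. These groups overlapped, and the log2 fold change of 0.53 ± 0.34 (SE) did not pass (edgeR adjusted p = 0.236) and was -0.51 with total counts.

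Peptide genes tied to sleep and arousal rose where they were measurable. nlp-8, one of the genes through which the ALA neuron promotes sleep after stress, had 20.9, 19.6 and 26.7 CPM in the mutant, compared with 4.49, 5.02 and 5.95 CPM in wild type, a 4.34-fold rise (edgeR adjusted p = 0.00237). nlp-14, which encodes orcokinin-like peptides, had 39.9, 46.7 and 50.1 CPM against 9.05, 13.6 and 10.0 CPM and rose 4.19-fold (edgeR adjusted p = 0.00232). nlp-49, whose peptides signal through the receptor SEB-3 in arousal, had 50.2, 69.4 and 81.9 CPM against 15.6, 15.7 and 16.3 CPM and rose 4.23-fold (edgeR adjusted p = 0.00220). In these 3 genes the groups lay far apart, and mutant replicate 3 was the highest library each time. nlp-22, a sleep-promoting peptide gene of the RIA neurons whose expression cycles with the larval molts, was not detectable at this depth for a comparison. It had 1, 1 and 0 counts in the mutant and 0 in each wild-type library, where 3 counts would be at most 0.123 CPM.

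Genes known from sensory neurons gave 3 rises among 4. nlp-1, released from the olfactory neuron AWC and read by NPR-11, had 16.5, 19.1 and 21.7 CPM in the mutant, compared with 3.11, 4.11 and 4.48 CPM in wild type, a 4.89-fold rise (edgeR adjusted p = 0.00232). nlp-9, also expressed in AWC, had 26.1, 36.3 and 34.5 CPM against 5.53, 8.43 and 8.68 CPM and rose 4.28-fold (edgeR adjusted p = 0.00269). snet-1, which encodes a secreted peptide of olfactory plasticity that the protease NEP-2 degrades, had 17.8, 17.2 and 22.3 CPM against 7.49, 5.76 and 8.15 CPM. Its 2.67-fold rise was smaller than those of nlp-1 and nlp-9, although the difference was not tested (edgeR adjusted p = 0.00537), and it did not pass with total counts. nlp-5, expressed in the AWA olfactory neurons, had 0.900, 1.52 and 0.984 CPM in the mutant, compared with 0.714, 0.247 and 1.10 CPM in wild type. These groups overlapped, and its log2 fold change of 0.71 (edgeR adjusted p = 0.332) was -0.30 with total counts.

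Genes of egg laying and of the gut rhythm all rose under TMM, by unequal amounts. nlp-3, expressed in the egg-laying HSN neurons, had 17.6, 18.9 and 24.2 CPM in the mutant, compared with 4.46, 3.95 and 6.05 CPM in wild type, a 4.19-fold rise (edgeR adjusted p = 0.00281). nlp-7, whose peptides inhibit egg laying, had 5.53, 7.25 and 7.88 CPM against 4.23, 2.84 and 3.82 CPM. Its 1.89-fold rise (edgeR adjusted p = 0.0416) was the smallest of the 56: it was lost without any single library other than mutant replicate 1 (adjusted p = 0.0520 to 0.122) and turned to a log2 fold change of -0.11 with total counts.

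nlp-40 is released by the intestine and, through AEX-2 on GABAergic neurons, triggers the expulsion step of defecation. It lies at the left end of chromosome I (11495 to 16837, plus strand) and had 115, 185 and 174 CPM in the mutant, compared with 71.7, 87.4 and 80.0 CPM in wild type. The lowest mutant library still exceeded the highest wild-type library. The rise was 1.99-fold, from 79.7 ± 7.86 to 158 ± 37.5 CPM (SD, n = 3; edgeR adjusted p = 0.0123), with a log2 fold change of -0.04 under total counts. The call was lost without mutant replicate 2 (adjusted p = 0.0561) or 3 (0.0550).

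Of the remaining members with a known family, nlp-2 and nlp-23 encode RPamide peptides, as nlp-22 does, and nlp-15 encodes orcokinin-like peptides. nlp-15 had 25.5, 27.8 and 27.3 CPM in the mutant, compared with 6.86, 7.20 and 7.86 CPM in wild type, a 3.67-fold rise (edgeR adjusted p = 0.00232) with small spread in both groups. nlp-2 had 2.70, 4.62 and 5.45 CPM against 0.637, 2.18 and 1.32 CPM. It rose 3.12-fold (edgeR adjusted p = 0.0319), but did not pass with total counts. Dropping any 1 of 4 libraries, mutant replicates 2 and 3 and wild type replicates 1 and 3, brought its adjusted p to between 0.0622 and 0.106. nlp-23 had 8, 1 and 1 counts in the mutant and 1, 2 and 1 in wild type and was not tested.

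The strongest rises at 5 CPM or more in the mutant were, after nlp-12, those of nlp-80, nlp-21, nlp-11, nlp-13, nlp-35, nlp-71 and nlp-99. nlp-80 (V, 11064954 to 11065613, minus strand) had 39.2, 54.8 and 61.5 CPM in the mutant, compared with 7.98, 6.99 and 9.65 CPM in wild type, a 6.31-fold rise (edgeR adjusted p = 0.00167). nlp-21 (III, 11388624 to 11393262, minus strand) had 60.7, 77.6 and 80.0 CPM against 10.6, 11.8 and 12.6 CPM and rose 6.22-fold (edgeR adjusted p = 0.00162). The exons of nlp-21 overlap those of subs-4 on the opposite strand, for which the log2 fold change was 1.99 with an adjusted p of 0.0504 in the edgeR test. Reads from the stretch that this pair shares cannot be told apart either. In both nlp-80 and nlp-21 the lowest mutant value was several times the highest wild-type value. nlp-11 had 29.8, 44.8 and 51.0 CPM against 5.66, 6.62 and 9.74 CPM, a 5.70-fold rise. nlp-13 had 42.8, 49.8 and 65.1 CPM against 8.44, 9.54 and 9.84 CPM, a 5.67-fold rise. nlp-35 and nlp-71 were expressed at lower levels, with wild-type means of 1.08 and 1.44 CPM.

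nlp-71 had 5.66, 7.02 and 11.4 CPM in the mutant, compared with 1.30, 1.32 and 1.69 CPM in wild type. nlp-35 had 3.92, 7.48 and 6.89 CPM against 1.38, 0.740 and 1.13 CPM. Both rose 5.57-fold with non-overlapping groups (edgeR adjusted p = 0.00306 and 0.00357). nlp-99 had 25.6, 30.2 and 36.3 CPM in the mutant, compared with 5.46, 4.69 and 6.70 CPM in wild type, a 5.46-fold rise (edgeR adjusted p = 0.00194). Its exons overlap those of nep-2 on the same strand, and nep-2 had a log2 fold change of -0.20 that did not pass. In all, 15 members had an exon overlap with another gene, and among the 51 tested members without one 44 rose and 0 fell.

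The other rises spanned the range of levels. Of the 56 genes, 20 had a mutant mean under 5 CPM, with folds of 2.77 to 6.21, 17 lay from 5 to 20 CPM, with folds of 1.89 to 5.57, and 19 at 20 CPM or more, with folds of 1.99 to 7.36. nlp-63 had 3.99, 4.21 and 4.24 CPM in the mutant, compared with 0.510, 0.740 and 0.752 CPM in wild type, and rose 6.21-fold (edgeR adjusted p = 0.00254). nlp-89 had 2.12, 3.98 and 2.88 CPM against 0.382, 0.452 and 0.627 CPM and rose 6.11-fold (edgeR adjusted p = 0.00365). nlp-70 had 3.22, 2.81 and 4.62 CPM against 0.586, 0.535 and 0.658 CPM and rose 5.91-fold (edgeR adjusted p = 0.00304). In each of these 3 genes every wild-type library was below 1 CPM and every mutant library above 2 CPM.

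Among genes of higher level, nlp-6 and nlp-10 rose by less. nlp-6 had 22.8, 31.7 and 32.5 CPM in the mutant, compared with 8.69, 8.88 and 9.56 CPM in wild type, a 3.21-fold rise (edgeR adjusted p = 0.00306). nlp-10 had 25, 27.6 and 30.6 CPM against 8.49, 8.93 and 9.87 CPM, a 3.05-fold rise (edgeR adjusted p = 0.00298) that just missed the threshold with total counts (adjusted p = 0.0505). nlp-55 had 16.6, 15.5 and 16.2 CPM against 4.03, 2.39 and 4.73 CPM and rose 4.32-fold (edgeR adjusted p = 0.00307). The mutant libraries of nlp-55 differed little from each other, while wild type replicate 2 was the lowest of its group.

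The 8 tested genes that did not pass were nlp-4, nlp-16, nlp-67, nlp-47, nlp-5, nlp-46, nlp-62 and nlp-69. nlp-4 (I, 10517321 to 10518055, minus strand) had 2.96, 4.38 and 3.03 CPM in the mutant, compared with 4.82, 5.10 and 7.33 CPM in wild type, and its log2 fold change was estimated at -0.73 ± 0.32 (SE) with an adjusted p of 0.105 in the edgeR test. Every mutant value lay below every wild-type value, and it passed as lower with length trends removed (log2 fold change -0.88, adjusted p = 0.0429) and with total counts (-1.74, adjusted p = 0.00236). nlp-16 had 3.60, 6.78 and 6.13 CPM against 6.14, 4.36 and 4.92 CPM, and its log2 fold change of 0.10 was -0.94 with total counts, where it passed as lower (adjusted p = 0.0330). nlp-67 had 6.24, 6.43 and 7.95 CPM in the mutant, compared with 2.73, 3.91 and 11.3 CPM in wild type. Its groups overlapped through wild type replicate 3: the estimate of 0.20 on the log2 scale became 1.05 when that library was left out (edgeR adjusted p = 0.0573). For nlp-46, nlp-62 and nlp-69 the log2 fold changes, 0.90, 0.90 and 0.94, missed the threshold with adjusted p of 0.240, 0.135 and 0.106 in the edgeR test, and each was below 0 with total counts (-0.13, -0.11 and -0.09). In nlp-69 the groups did not overlap, with 1.48, 1.23 and 2.65 CPM in the mutant against 0.841, 1.03 and 0.909 CPM in wild type.

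The other 7 members did not pass the filter on low counts: nlp-22, nlp-23, nlp-39, nlp-60, nlp-78, nlp-90 and nlp-119. nlp-39 and nlp-90 had no count in any library. The other 5 had at most 8 counts in a library, the largest totals being 10 counts of nlp-23 over the mutant libraries and 14 of nlp-60 over wild type. Of the 64 genes tested, 59 passed the filter in every wild-type library, and 4 (nlp-5, nlp-48, nlp-52 and nlp-91) passed in every mutant library but not in every wild-type one, so the filter itself favoured a rise in them. Among the 59, 53 rose.

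Per kilobase of exon, the same 4 genes had the highest mean levels in both genotypes. In wild type nlp-36 had 132 ± 34.1 CPM per kb and nlp-40 had 112 ± 11 (SD, n = 3), which did not differ beyond their spread. nlp-20 followed with 27.8 ± 6.55, nlp-49 with 26.4 ± 0.679 and nlp-18 with 17.2 ± 2.92 CPM per kb. nlp-20 and nlp-49 also did not differ beyond their spread. In the mutant the same first 4 were at 315 ± 72.5, 222 ± 52.6, 142 ± 13.1 and 112 ± 26.7 CPM per kb. The fourth of these, nlp-49, did not differ beyond its spread from nlp-12 (107 ± 2.40), nlp-80 (97.3 ± 21.4) or nlp-21 (92.2 ± 13.3 CPM per kb). By mean, nlp-12 moved from the eighth place to the fifth, and nlp-4 from place 19 to place 52.

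The genes with the highest levels per length rose by different amounts. nlp-36 had 81.9, 130 and 120 CPM in the mutant, compared with 42, 37.4 and 60.1 CPM in wild type, a 2.38-fold rise (edgeR adjusted p = 0.00902) that did not pass with total counts. Its exons overlap those of dars-1 on the opposite strand, which also rose (log2 fold change 0.67), and reads from the shared stretch cannot be told apart. nlp-20 had 73.2, 60.9 and 69.3 CPM against 12.9, 10.3 and 16.5 CPM and rose 5.11-fold (edgeR adjusted p = 0.00186). nlp-18 had 31.4, 35.8 and 44.9 CPM against 9.13, 7.49 and 10.6 CPM and rose 4.12-fold (edgeR adjusted p = 0.00242). Summed over all 71 genes, mutant libraries held 1060, 1322 and 1441 CPM and wild-type libraries 342, 349 and 421 CPM, so the groups did not overlap. nlp-40 alone made up 10.9% to 14% of these counts in mutant libraries but 19% to 25.1% in those of wild type.

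**Figure D3:**
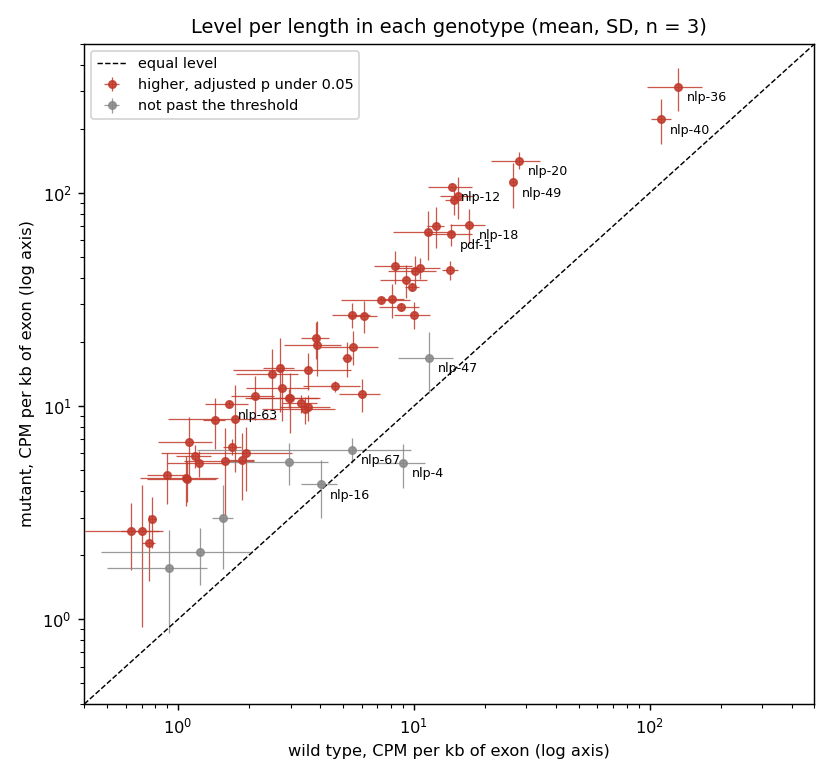
Mean level per kilobase of exon (TMM-scaled CPM per kb, log axes) of the 64 tested genes in wild type and in the mutant, with SD over 3 libraries. The dashed line marks equal levels. nlp-36 and nlp-40 lead in both genotypes, and nlp-4 lies below the line. With scaling by total counts nlp-40 and 8 other genes that lie above the line fall below it.

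Rises were found on every chromosome that holds members. On X 20 of 21 tested genes rose, on III 8 of 8, on II 9 of 10, on IV 9 of 11, on V 6 of 8 and on I 4 of 6. Neighbouring genes could differ in level. nlp-45, nlp-22, nlp-23 and nlp-2 lie within 7167 bases of chromosome X (2337600 to 2344766, all on the minus strand). Of these nlp-22 and nlp-23 were close to the counting floor and have no fitted fold. The log2 fold changes of nlp-45 and nlp-2, 1.91 ± 0.39 and 1.64 ± 0.50 (SE), did not differ beyond their standard errors. nlp-45 had 1.87, 1.46 and 2.50 CPM in the mutant, compared with 0.510, 0.494 and 0.533 CPM in wild type and rose 3.75-fold (edgeR adjusted p = 0.00751), a rise that did not pass with total counts. The member closest to unc-30 is nlp-79, which starts 25169 bases beyond the annotated end of unc-30 (13124406) on chromosome IV. It had 3.15, 3.80 and 4.17 CPM in the mutant, compared with 1.30, 1.03 and 1.66 CPM in wild type, a 2.77-fold rise (edgeR adjusted p = 0.0121). This was not among the larger rises, and it did not pass with total counts. nlp-79 overlaps crld-1 on the opposite strand, whose log2 fold change of -0.38 did not pass.

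Genes of peptide processing rose in part. Of the 13 on the list, 5 rose and 8 did not pass, where 17.1% of all genes tested rose. None (0) fell, and the edgeR test at an unadjusted p under 0.05, DESeq2 and limma-voom also found 0 lower. The rises were in some of the genes of neuropeptide maturation. egl-3, the proprotein convertase that cuts most precursors, rose 3.36-fold to 193 ± 28.0 CPM, and egl-21, the carboxypeptidase that trims the cut ends, rose 4.58-fold to 266 ± 49.8 CPM (SD, n = 3). sbt-1, the 7B2 chaperone of EGL-3, rose 5.05-fold, and pghm-1 and pgal-1, which carry out the separate steps of amidation, rose 5.26-fold and 3.36-fold. Adjusted p-values of these 5 were 0.00162 to 0.00274 in the edgeR test, and all 5 also passed with total counts.

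The other convertases kpc-1, bli-4 and aex-5 had log2 fold changes of 0.18, 0.25 and 0.33, and the carboxypeptidase genes cpd-1 and cpd-2 had -0.21 and -0.08, none of which passed. A further amidation gene, pamn-1, had 0.46 and did not pass either (edgeR adjusted p = 0.23). The peptide-degrading neprilysin genes nep-2 and nep-1 had -0.20 and -0.08, and neither passed. With total counts 5 genes of this list fell.

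Of 14 tested genes of dense core vesicles, 2 rose and 4 fell, where 17.1% of all genes tested rose and 20.9% fell. ida-1, a membrane protein of dense core vesicles, rose 3.08-fold to 111 ± 11.1 CPM, and the synaptotagmin gene snt-6 rose 3.98-fold. cccp-1 and rund-1, which act with the GTPase RAB-2 in making these vesicles, fell 7.10-fold (9.72 ± 3.23 to 1.37 ± 0.264 CPM; edgeR adjusted p = 0.00249) and 4.02-fold. unc-104, the kinesin that carries vesicles along axons, fell 3.35-fold, with a log2 fold change of -1.05 in place of -1.74 once length trends were removed. The fall of pkc-1, a protein kinase C of peptide release, lost its call in 6 alternatives, among them the removal of length trends (adjusted p = 0.264). unc-31, required for vesicle release, had a log2 fold change of -0.49 that did not pass. With total counts 11 of the 14 fell.

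The edgeR test made no call among the listed neuropeptide receptor genes. The list was not limited to receptors of the peptide genes described here: trhr-1, for example, is on it, while trh-1 lies outside the symbol rule. Of 22 listed receptor genes found in the files, 14 passed the filter, and of those 0 rose and 0 fell in the edgeR test, with a median log2 fold change of 0.04. At an unadjusted p under 0.05, 0 were higher and 2 lower (tkr-3 and pdfr-1), DESeq2 called 1 lower and limma-voom 0. Every mutant library lay below every wild-type library for 3 of the 14, and above for 1. Over all genes tested these patterns were seen in 28.2% and 24.4%, so the 3 are no sign of lower receptor levels. The listed receptor gene with the highest level, pdfr-1, the receptor of the PDF peptides, had 4.45 ± 1.13 CPM in the mutant, compared with 7.40 ± 1.16 CPM in wild type (edgeR adjusted p = 0.0915). ckr-2, a receptor of NLP-12, had 2.74 ± 0.461 against 1.75 ± 0.651 CPM (edgeR adjusted p = 0.211). aex-2, the receptor of NLP-40, had 1.06 ± 0.446 against 0.986 ± 0.440 CPM (edgeR adjusted p = 0.877). Most of these receptors had few reads, and a p that misses the threshold does not show equal levels. With total counts 6 fell.

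**Figure D4:**
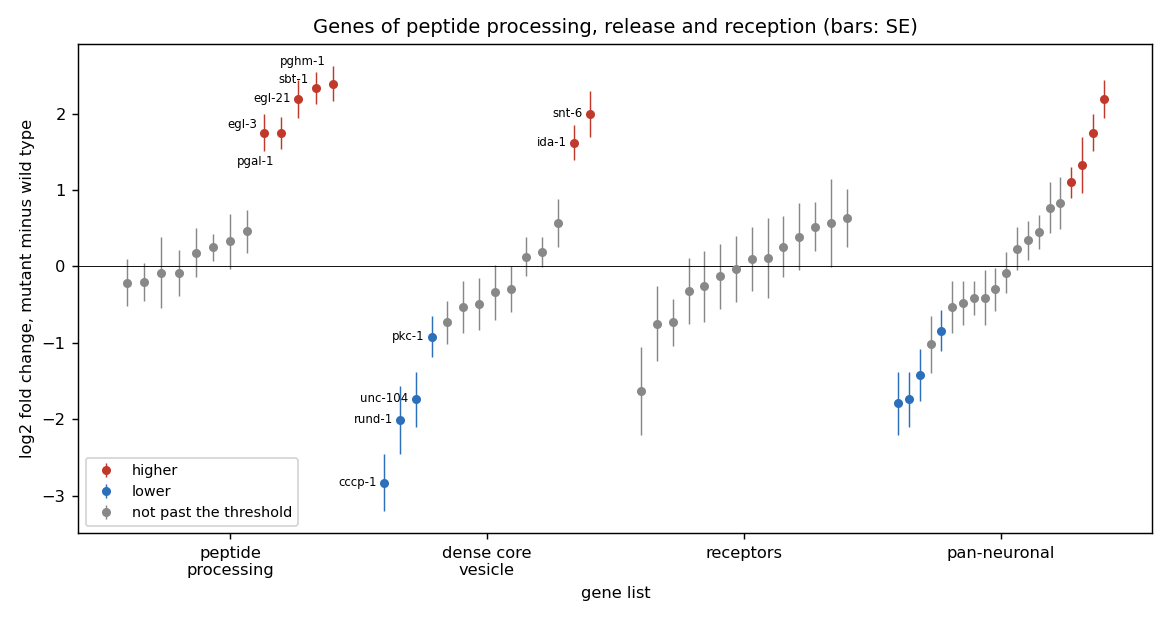
Log2 fold changes (mutant minus wild type, TMM scale, bars SE) of tested genes of peptide processing, dense core vesicles, receptors and the pan-neuronal list, in red where higher and in blue where lower at adjusted p under 0.05. The 5 rises of the processing list lie between 1.75 and 2.39, and the receptors hold no call. The pan-neuronal list repeats egl-3 and egl-21 of the processing list and unc-104 and ric-19 of the vesicle list. With scaling by total counts 5 processing, 11 vesicle and 6 receptor genes fell.

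Calls were also made among markers of cell types, to be read beside the 17.1% of all genes tested that rose and the 20.9% that fell. Of 20 pan-neuronal genes, 4 rose and 4 fell, with a median log2 fold change of -0.19, and the list summed to between 880 and 1107 CPM in mutant libraries and between 482 and 574 CPM in wild-type ones. Both the rises and that sum include egl-3 (193 against 57.5 CPM in wild type) and egl-21 (266 against 58 CPM), already counted as processing genes. The falls include unc-104, already counted as a vesicle gene. The other rises were those of snb-1 (2.14-fold) and snn-1 (2.52-fold). With size factors taken from the pan-neuronal genes, 56 of the peptide genes were again higher, with a median of 2.13. Of 12 genes each, epidermal markers had 3 rises in the edgeR test (8 at an unadjusted p under 0.05, 9 with DESeq2 and 9 with limma-voom) and a median of 2.17, intestinal markers 5 rises and a median of 0.75, and body wall muscle markers 8 rises, 1 fall and a median of 1.03. The summed level of the epidermal list varied most, from 9382 to 19653 CPM among mutant libraries and from 831 to 7332 CPM among wild-type ones. Sperm markers had 5 falls among 12 and germline markers 3 among 16, with medians of -0.81 and -0.21. Of 10 tested genes of GABAergic motor neurons, 2 rose and 2 fell, with a median of 0.05. The rises were those of the neuropeptide genes flp-13 (5.64-fold, edgeR adjusted p = 0.00194) and flp-11 (5.22-fold, edgeR adjusted p = 0.00186). The falls were those of unc-25, the GABA-synthesising enzyme (2.88-fold, edgeR adjusted p = 0.00632), and ttr-39 (33-fold, edgeR adjusted p = 0.00281). ttr-39 had only 1, 1 and 0 counts in the mutant. No listed marker was at 0 in all libraries. The part of any marker changes in the peptide genes' rise was not tested. In whole animals a larger share of neuronal or other tissue and more RNA per cell cannot be told apart.

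**Figure D5:**
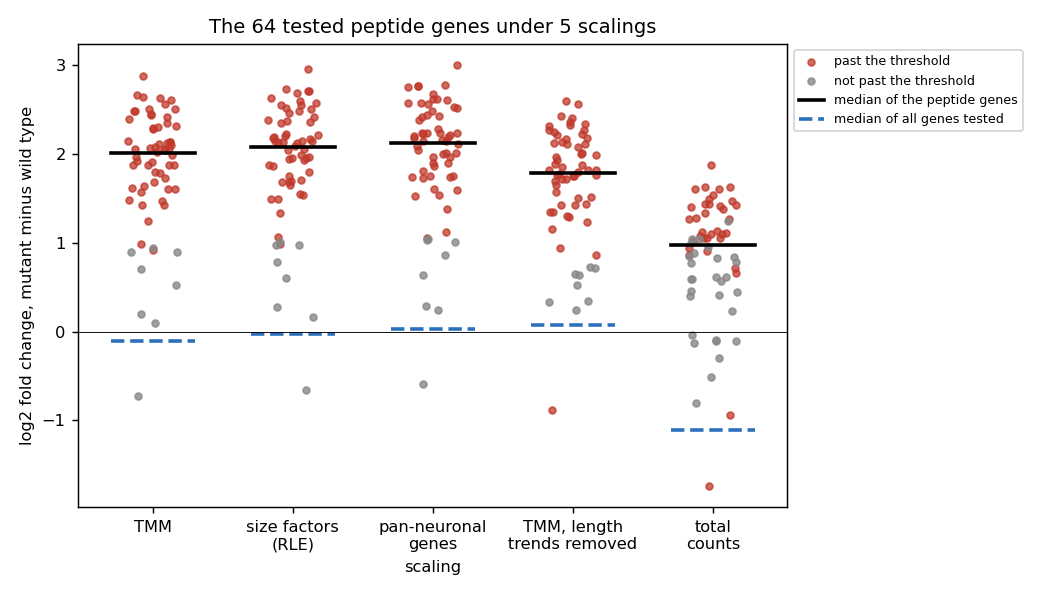
Log2 fold changes of the 64 tested peptide genes under 5 scalings, in red where the adjusted p was under 0.05. Black bars are their medians and blue dashes the medians of all genes tested. The peptide genes' median is 2.01 under TMM, 2.07 with size factors, 2.13 with pan-neuronal scaling, 1.79 with length trends removed and 0.98 with total counts, where 9 genes turn below 0.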

How the data were processed

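As deposited, each library has 1 file of unnormalized read counts for WormBase gene identifiers. The submitters' processing notes name HTSeq and DESeq2, with no version. The sources used here do not name an aligner, genome build, annotation or strand setting. Symbols, exon lengths and coordinates (1-based) come from Ensembl release 115 of WBcel235, where 46863 of 46911 identifiers were found, with 7 symbols from RefSeq.

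All genes were fitted together in edgeR 4.0.16 (R 4.3.3) with TMM factors (0.654 to 0.760 in the mutant, 1.38 to 1.49 in wild type), the default expression filter (0.458 CPM, or 10 counts at the median library, in 3 libraries), a robust quasi-likelihood fit, genotype as the sole factor and Benjamini-Hochberg adjustment over 14506 genes. Unless another test is named, adjusted p-values are from this fit. Standard errors follow from the F statistic. Each alternative changed 1 choice, except that the DESeq2 test also used its own size factors: DESeq2 1.42.0, limma-voom 3.58.1, other scalings, no filter, loess length offsets, a replicate block, or libraries left out.

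No library repeated another: pairs within a group gave chi-square values of 31.9 to 255 per degree of freedom. Members and lists were chosen with earlier results of these data known. Full values are given for members with a listed role, the 8 largest rises of at least 5 CPM, any fall, and the 5 highest wild-type levels per kb. Members outside that rule (those that did not pass, nlp-6, nlp-10, nlp-45, nlp-55, nlp-63, nlp-70, nlp-79 and nlp-89) were chosen after their values were seen. Of the symbols listed for a role, nlp-38, nlp-44 and nlp-54 had no match under those names, nor had nmur-4 among the receptors. A symbol without a match does not show that the gene is absent, since it may be listed under another name. Floors cover counting error only. The sequence features planned for these genes were not analysed here.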

Additional observations from a re-analysis of the deposited data

How the results depend on the processing

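All 64 tested genes kept their direction and their side of the threshold with DESeq2 size factors, pan-neuronal scaling, DESeq2, limma-voom, the replicate block, and without mutant replicate 1. With no filter only nlp-7 lost its call, and with length trends removed nlp-7 lost its call and nlp-4 passed as lower. Whether replicate numbers pair the samples stayed unclear. Same-numbered libraries had correlated deviations for numbers 1 and 2 (r = 0.512 and 0.501 across genes) but not 3 (-0.0849). Mutant replicate 3 correlated best with wild type replicate 2 (0.408). With the replicate block 6943 genes were called in place of 5511, and 56 peptide genes rose in both fits.

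Scaling by total counts called 8673 genes (498 higher, 8175 lower). Among the peptide genes it gave 33 rises, 2 falls and a median of 0.98, and it turned nlp-5 (-0.30), nlp-7 (-0.11), nlp-16 (-0.94), nlp-40 (-0.04), nlp-46 (-0.13), nlp-47 (-0.51), nlp-62 (-0.11), nlp-67 (-0.80) and nlp-69 (-0.09). The falls there were 5 for processing, 11 for vesicle and 6 for receptor genes. With length trends removed the median was 1.79, with 1 fall. Leaving out single libraries gave 2791 to 6154 calls over all genes (1359 to 2897 higher, 1424 to 3257 lower). The counts over all genes were lowest when mutant replicate 3 (2791), mutant replicate 2 (2826) or wild type replicate 3 (3466) was dropped. Single omissions gave 49 to 56 rises of peptide genes, medians of 1.93 to 2.19 and 0 to 1 falls of receptor genes. The rises lost were those of nlp-2, nlp-7, nlp-19, nlp-40, nlp-76, nlp-81, nlp-91 and ntc-1, and without mutant replicate 3 the log2 fold change of nlp-76 went from 1.88 to 1.29 (edgeR adjusted p = 0.106). Over single omissions nlp-16 ranged from -0.01 (mutant replicate 2 dropped; -0.00 for wild type replicate 2) to 0.40, and nlp-67 from -0.15 (wild type replicate 1; -0.02 for wild type replicate 2) to 1.05. Dropping mutant replicate 1 and wild type replicate 2 together gave 7469 calls over all genes (3521 higher, 3948 lower), 8 processing genes rose, 1 receptor gene fell, and nlp-2 went from 1.64 to 2.41. No filter and DESeq2 each gave 1 fall of a receptor gene. Where no fewer genes or samples were used, the cause was not tested. The 7 untested members had 0 to 8 counts per library, too few for a comparison at this depth, and most receptors had few counts.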

Other observations

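A few genes outside the symbol rule were looked up by symbol after the data were seen, because their names were taken to replace or stand beside nlp numbers. capa-1, related to neuromedin U and capability peptides, had 3.41, 4.62 and 6.59 CPM in mutant replicates 1 to 3 and 1.20, 1.07 and 1.63 CPM in wild type, a 3.73-fold rise (edgeR adjusted p = 0.00659). trh-1, related to thyrotropin-releasing hormone, had 3.02, 3.04 and 3.56 CPM against 0.433, 0.658 and 1.07 CPM and rose 4.45-fold (edgeR adjusted p = 0.00642). lury-1, which encodes luqin-like peptides, had 6.63, 10.8 and 13.7 CPM against 2.24, 3.17 and 2.69 CPM and rose 3.84-fold (edgeR adjusted p = 0.00491). In these 3 genes the groups did not overlap. mip-1 was taken by its symbol only, and whether that symbol names a peptide precursor was not checked. It had 63.9, 36.9 and 38.8 CPM in the mutant against 57.2, 35.1 and 39.3 CPM in wild type. Its groups overlapped, and its log2 fold change of 0.08 did not pass (edgeR adjusted p = 0.839).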
